A study of Mus musculus with 27 samples.

Results

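Whole hearts of C57Bl/6 mice aged 1.5 years (labelled 18-month old) were compared with whole hearts of mice aged 1 year. The comparison covered all genes located off chromosomes X and Y in the raw count table of whole hearts, 21197 of its 22855 genes, of which 17050 passed the filter on low counts and were tested. It used 6 of the 15 whole hearts and of the 27 samples of a study that sequenced polyA RNA from whole hearts and from PDGFRα-expressing cardiac fibroblasts at 5 ages to follow gene expression from birth to old age. Each age had 3 whole hearts, the study's methods give 3 animals per time point, and the labels name no genotype, treatment, or housing that differed between the 2 groups. Total counts of the 6 hearts ranged from 52917602 to 67969823.

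The heart is built mostly of cardiomyocytes by mass, whose sarcomeres contract on calcium released through the ryanodine receptor and whose energy comes mainly from mitochondrial oxidation of fatty acids. Fibroblasts, endothelial cells, mural cells, and leukocytes surround them in a matrix of collagen. Cardiomyocytes also run a circadian clock, in which BMAL1 (gene Arntl) with CLOCK or NPAS2 switches on the Per, Cry, and Rev-erb genes that in turn repress it, and whose output factors DBP, TEF, and HLF drive metabolic genes through the day. In a bulk heart sample fewer cells of a type and less RNA per cell cannot be told apart.

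The 2 groups differed in more than their labelled age. Xist, transcribed from the inactive X chromosome of females, was at 0.281 to 0.570 CPM (counts scaled to a common library size by the TMM method) in the 1-year hearts and at 34.8 to 129 CPM in the 1.5-year hearts. The Y-linked gene Ddx3y was at 68.7 to 99.0 CPM at 1 year and at 0.0368 to 0.397 CPM at 1.5 years. The labels do not give sex, and the 2 groups did not overlap in either gene, so that age and sex cannot be told apart in any difference below. The labels also do not give the time of day of collection, so that its part in any difference below, clock genes included, was not tested. In the 14-week hearts, which are given beside some genes, Xist was at 0.125 to 0.414 CPM and Ddx3y at 35.5 to 52.4 CPM, as at 1 year.

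Hearts also differed in how their counts were spread over long and short transcripts. For each heart the deviation of each gene's log2 CPM from its mean over the 15 hearts was regressed on the log2 length of the gene's longest annotated transcript. The slope per doubling of length was -0.10, -0.05, and 0.06 in replicates 1, 2, and 3 of 1 year, and -0.12, -0.29, and -0.46 in replicates 1, 2, and 3 of 1.5 years. Replicates 2 and 3 of 1.5 years thus stood apart from the other hearts, with fewer counts on long transcripts than any other of the 15. Genes of the mitochondrial genome took 33.0%, 33.2%, and 29.2% of all counts at 1 year and 26.5%, 18.5%, and 18.7% at 1.5 years (31.8% ± 2.23 against 21.2% ± 4.55, SD, n = 3 each). The exact two-sided permutation test gave p = 0.10, the smallest that 3 against 3 hearts allow.

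**Figure D1:**
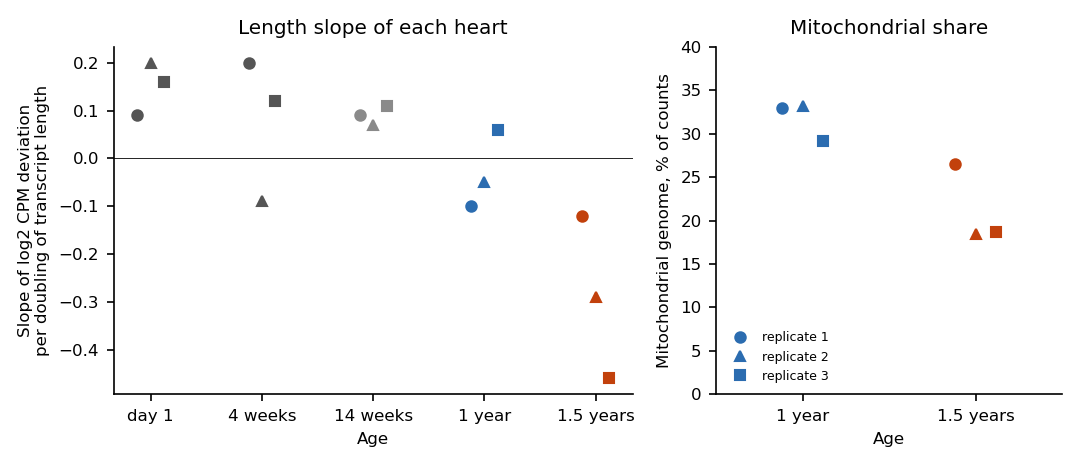
Left, slope of the deviation of log2 CPM against log2 transcript length (y axis, per doubling of length) for each of the 15 whole hearts by age, with marker shapes for replicates 1 to 3. Right, percent of all counts on the mitochondrial genome in the 6 hearts compared. Replicates 2 and 3 of 1.5 years had the lowest slopes, -0.29 and -0.46, and the lowest mitochondrial shares.

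Of the 17050 genes tested, 459 (2.69%) differed between 1.5 years and 1 year by edgeR's quasi-likelihood test (Benjamini-Hochberg adjusted p below 0.05 over all genes), among 3765 with an unadjusted p under 0.05. Expression was higher at 1.5 years for 143 (0.839%) and lower for 316 (1.85%). The median size of the change among the 459 was 1.08 on the log2 scale, 264 changed at least 2-fold, 446 were protein-coding, and the 3 and 3 hearts did not overlap for 455, as for 3916 of the 17050 genes tested. Over all genes tested the median change was -0.08 on the log2 scale. With library size in place of TMM scaling, which moved that median to 0.00, 164 genes were higher and 128 lower. Falls outnumbered rises with median-of-ratios scaling (177 higher, 260 lower) and without the mitochondrial genome (173 and 264). The number of genes depended on single hearts. It was 1755 without replicate 1 of 1.5 years, 147 without replicate 2 and 118 without replicate 3 of that age, and 171, 117, and 63 without replicates 1, 2, and 3 of 1 year. All 459 were also called by DESeq2, 30 were called with only these 2 ages in the fit, and 49 were called whichever heart was left out.

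The changes followed transcript length. Over 12539 genes of known length that averaged at least 1 CPM, Spearman's rho between the log2 fold change and transcript length was -0.47, and over the 9 pairs of 1 heart of each age it lay between -0.52 and -0.07. These correlations are across genes, which share libraries and are not replicates. In the fifth of genes with the shortest transcripts (up to 1918 bases) the median log2 fold change was 0.35, with 2.67% of genes higher and 0.279% lower. In the fifth with the longest (5302 bases and above) it was -0.52, with 0.319% higher and 7.26% lower. Called genes had a median length of 1967 bases where expression was higher and of 6124 bases where it was lower, against 3391 bases over all 12539.

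A second fit added each heart's length trend as an offset, which takes a change that goes with length out of the values whatever its source. The rho was then 0.02. Among 16835 genes with a length, 105 (0.624%) were higher and 97 (0.576%) lower, and the fifth of longest transcripts held 1.24% higher and 1.12% lower. Of the 451 called genes with a length, 152 were called in the same direction with the offset, 63 higher and 89 lower, and 50 other genes were called only with it. The count with the offset was 732 without replicate 1 of 1.5 years, 117 without replicate 2 and 111 without replicate 3 of that age, and 103, 88, and 65 without replicates 1, 2, and 3 of 1 year. Values with this offset are given below as the length-adjusted change.

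**Figure D2:**
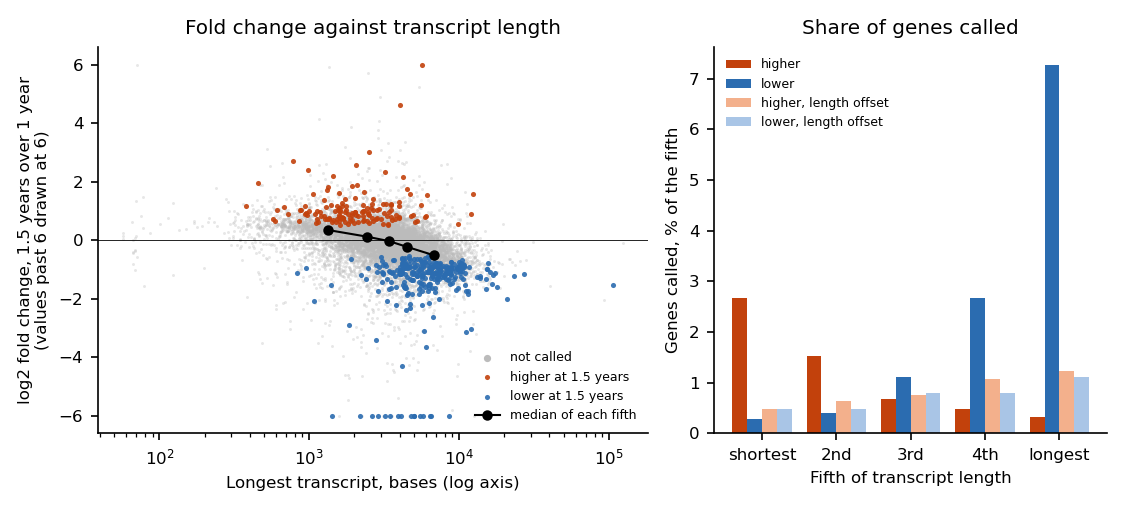
Left, log2 fold change (1.5 years over 1 year) against the length of the longest transcript (log axis), with called genes in color and medians over quintiles of length in black. Right, percent of the genes of each quintile that were called higher or lower, without and with the length offset. The quintile of longest transcripts held 7.26% lower without it and 1.12% with it.

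Calls that held in both fits and whichever heart was left out numbered 34, of which 12 were higher and 22 lower. Apart from the lists below, these genes were chosen for description after their values were seen. With only the 2 ages in the fit 17 of the 34 were called. The other 17, whose adjusted p there was 0.0515 to 0.147, included Per3, Nr1d2, Inmt, Tcap, Actc1, Mmp14, Alas1, Ckap4, Trp53i11, BC055324, Morn4, and Aldh1a3. Outside the 34, the calls described below that were also made in that fit were Cdkn1a, Hspb1, and Spon2 (adjusted p = 0.00489, 0.0396, and 0.0120). Those higher were Arntl, Nppb, Tnfrsf12a, Acta1, Actc1, Rcan1, Mmp14, Serpinh1, Alas1, Ckap4, Trp53i11, and Fbxl22. Those lower included 6 clock genes (Per1, Per3, Dbp, Tef, Hlf, and Nr1d2), and also Rhobtb1, Ppip5k2, Pfkfb2, Inmt, and Tcap. Rhobtb1, which encodes a BTB domain protein, was at 155, 139, and 183 CPM at 1 year and at 31.1, 28.3, and 32.0 CPM at 1.5 years, and its adjusted p equalled that of Arntl. It fell by 2.38 on the log2 scale (SE 0.23, adjusted p = 0.00011) and by 2.15 after length adjustment. Ppip5k2, which encodes a kinase of inositol pyrophosphates, was at 167, 160, and 188 CPM at 1 year and at 55.7, 26.2, and 33.6 CPM at 1.5 years (log2 fold change -2.16, adjusted p = 0.00681). At 3 of the 22 genes that were lower, hardly any read was left at 1.5 years. BC055324 had 25, 31, and 25 counts at 1 year and 0 in each 1.5-year heart, Morn4 had 121, 13, and 53 counts against 0, 1, and 0, and Aldh1a3, a retinaldehyde dehydrogenase, had 88, 99, and 63 against 0, 1, and 1. No fold is given for these 3.

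The 10 largest rises and the 10 largest falls among protein-coding genes called without overlap, at a mean of at least 10 CPM at one age or the other, also included Ptgds, Kcne1, Scgb1c1, Rtn4r, Fam76b, and Agap2. Ptgds, a prostaglandin D2 synthase, was at 110, 114, and 202 CPM at 1 year and at 405, 397, and 711 CPM at 1.5 years (log2 fold change 1.83, adjusted p = 0.0467). Kcne1, a regulatory subunit of cardiac potassium channels, was at 3.66, 0.846, and 1.52 CPM against 4.38, 12.2, and 14.0 CPM (log2 fold change 2.34, adjusted p = 0.0339). The 6 hearts thus did not overlap for either gene, but for Kcne1 replicate 1 of 1.5 years lay next to the 1-year hearts, and its mean reached 10 CPM at 1.5 years alone. The secretoglobin gene Scgb1c1 and the Nogo receptor gene Rtn4r had log2 fold changes of 1.95 and 1.84 (adjusted p = 0.0289 and just under 0.05), and Fam76b and Agap2 both of -2.22 (adjusted p = 0.0288 and 0.0467). After length adjustment Kcne1 and Fam76b still passed (adjusted p = 0.0381 and 0.0285) and the other 4 did not (adjusted p up to 0.0944). Each of these 6 calls was lost without replicate 3 of 1.5 years or replicate 2 or 3 of 1 year and without 1 or 2 further hearts (adjusted p up to 0.227).

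Circadian clock genes held the largest of these rises (Arntl) and 5 of the 10 largest falls (Per3, Per2, Dbp, Per1, and Nr1d2). Of the 19 clock genes listed and tested, 3 were higher and 7 lower at 1.5 years, against 0.839% and 1.85% of all genes, and 3 and 6 after length adjustment. Their median log2 fold change was -0.72, against -0.08 over all genes. As the time of day at which the hearts were collected is not given, its part in these changes was not tested. Without replicate 2 or replicate 3 of 1 year, and with only the 2 ages in the fit, 1 of the 3 rises (Arntl) remained called.

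Arntl (chr7:113207465-113314126 on GRCm38, plus strand), the activator of the loop, was at 0.511, 2.05, and 0.822 CPM at 1 year and at 27.5, 34.0, and 21.1 CPM at 1.5 years. The 3 hearts of 1.5 years were all above the 3 of 1 year, and the log2 fold change was 4.61 (SE 0.45, adjusted p = 0.00011), or 24.3-fold. Its partner Npas2 was at 2.99, 2.05, and 0.842 CPM at 1 year and at 10.8, 10.6, and 5.00 CPM at 1.5 years (log2 fold change 2.17, adjusted p = 0.0212). Nfil3, a repressor that competes with the DBP family for the same sites, was at 14.2, 8.72, and 6.06 CPM against 29.6, 19.2, and 30.4 CPM (log2 fold change 1.45, adjusted p = 0.0200). The call of Npas2 was lost without replicate 2 of 1.5 years or replicate 2 or 3 of 1 year, with adjusted p up to 0.0925, and that of Nfil3 without replicate 3 of 1.5 years or replicate 2 or 3 of 1 year, with adjusted p up to 0.101.

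The output factors, the period genes, and Nr1d2 moved the other way. Dbp (chr7:45705088-45710203, plus strand) was at 115, 123, and 124 CPM at 1 year and at 12.6, 18.9, and 17.1 CPM at 1.5 years. Among the changes described without length adjustment it had the smallest adjusted p (7e-05), and its level was 7.43-fold lower (log2 fold change -2.89, SE 0.26). The related factors Tef (172 ± 23.9 to 54.9 ± 5.73 CPM, SD, n = 3 each) and Hlf (33.0 ± 3.29 to 9.90 ± 1.70 CPM) fell by 1.65 and 1.74 on the log2 scale (adjusted p = 0.00078 and 0.00131). Per3, a period gene, was at 29.4, 42.9, and 73.9 CPM at 1 year and at 6.75, 3.65, and 1.33 CPM at 1.5 years (log2 fold change -3.64, SE 0.51, adjusted p = 0.00234). Per1, whose protein represses BMAL1 and CLOCK, was at 58.8, 56.0, and 93.9 CPM against 8.37, 18.7, and 14.8 CPM (log2 fold change -2.32, adjusted p = 0.00146). Nr1d2, which encodes the Arntl repressor Rev-erb beta, was at 103, 118, and 120 CPM against 35.9, 28.3, and 11.5 CPM (log2 fold change -2.17, adjusted p = 0.0110). For each of these genes the groups did not overlap and the call held whichever heart was left out, but with only the 2 ages in the fit the adjusted p was 0.0515 for Per3 and 0.0548 for Nr1d2.

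Per2 was at 27.5, 23.7, and 51.3 CPM at 1 year and at 6.57, 5.35, and 0.115 CPM at 1.5 years, and its call was less firm. The log2 fold change was -3.09 (SE 0.79, adjusted p = 0.0474), the adjusted p was 0.0684 after length adjustment, and the call was lost without replicate 2 of 1.5 years or any of the 3 hearts of 1 year (adjusted p up to 0.187). The other 9 clock genes did not pass. Cry2, a repressor, had a log2 fold change of -0.72 (adjusted p = 0.0667) and Rora, an activator of Arntl, one of -1.32 (adjusted p = 0.0686), neither with overlap between the groups. Nr1d1, which encodes Rev-erb alpha, was at 68.1 ± 9.39 CPM at 1 year and 51.0 ± 13.8 CPM at 1.5 years (adjusted p = 0.409), and Clock itself at 33.6 ± 10.2 and 25.6 ± 11.3 CPM (log2 fold change -0.39, and 0.22 after length adjustment, adjusted p = 0.563 and 0.768). Cry1, Ciart, Bhlhe40, and Bhlhe41 had adjusted p values between 0.141 (Bhlhe41) and 0.509 (Cry1). Of these, the repressor gene Cry1 had a positive log2 fold change, 0.11 to 0.49 over the fits that left out 1 heart.

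Set beside these, the 14-week hearts had levels nearer to 1.5 years for some clock genes and nearer to 1 year for others. The changes that follow share the 1-year or the 1.5-year hearts with the comparison described here. Arntl was at 22.1 ± 3.42 CPM at 14 weeks, a log2 change of -4.29 to 1 year and 0.32 from 14 weeks to 1.5 years (adjusted p = 0.00038 and 0.655). Dbp was at 21.0, 21.9, and 14.2 CPM in replicates 1, 2, and 3 of 14 weeks, with changes of 2.66 and -0.23 (adjusted p = 0.0002 and 0.597). Per1 was at 59.7 ± 2.57 CPM at 14 weeks, with changes of 0.22 and -2.10 (adjusted p = 0.850 and 0.0007). Hlf was at 24.6 ± 1.52 CPM, with changes of 0.43 and -1.31 (adjusted p = 0.400 and 0.00166).

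**Figure D3:**
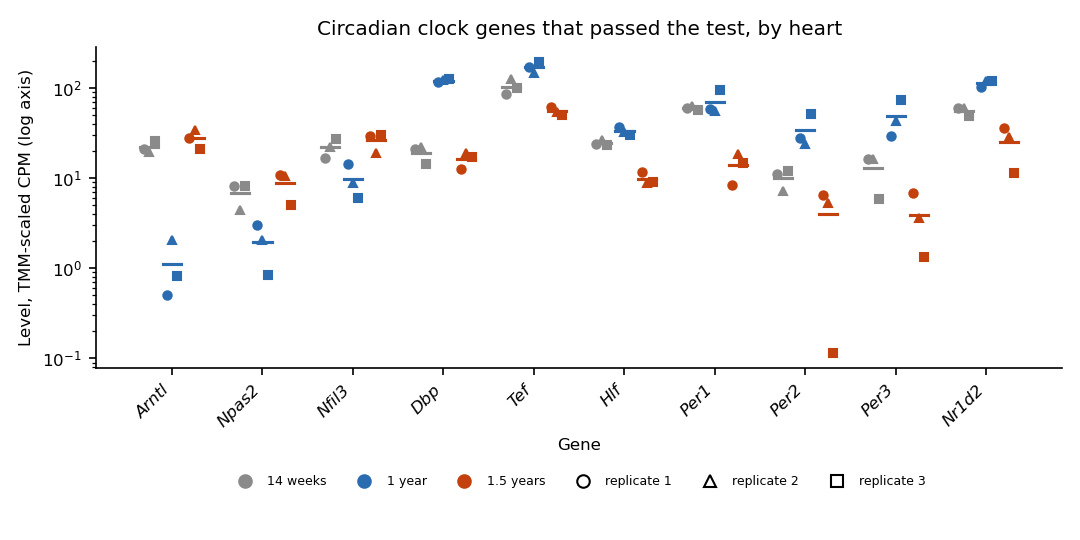
Level of the 10 clock genes that passed the test (y axis, TMM-scaled CPM, log axis) in each heart aged 1.5 years, 1 year, or 14 weeks, with marker shapes for replicates 1 to 3 and bars at group means. Arntl rose from a mean of 1.13 to 27.5 CPM and Dbp fell from 121 to 16.2 CPM, without overlap of the 3 and 3 hearts.

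Promoters are shown for clock genes that moved, with short elements through which the loop is known to act. RefSeq start sites on GRCm38.p6, from 250 bases before the start to 50 after, were available for 9 of the 10 (none for Per2) and were searched on both strands for the E-box CACGTG, bound by BMAL1 with its partners, the D-box TTATGTAA of the DBP family and NFIL3, and the element TAGGTCA of the ROR and Rev-erb receptors. Among all 32851 promoters 7.15% held the E-box, 0.938% the D-box, and 2.61% the ROR element. These shares are per promoter, whereas a gene with several listed starts was searched at each. Capitals mark the matches, and each sequence runs along the strand of the gene. Among the rises, Arntl (chr7:113207261-113207560, plus strand, the second of its listed starts) held a ROR element at 30 bases after the start, and its first listed start held no match. Nfil3 (chr13:52980990-52981289, minus strand) held the ROR element, as its reverse complement TGACCTA, at 12 bases before.
Arntl: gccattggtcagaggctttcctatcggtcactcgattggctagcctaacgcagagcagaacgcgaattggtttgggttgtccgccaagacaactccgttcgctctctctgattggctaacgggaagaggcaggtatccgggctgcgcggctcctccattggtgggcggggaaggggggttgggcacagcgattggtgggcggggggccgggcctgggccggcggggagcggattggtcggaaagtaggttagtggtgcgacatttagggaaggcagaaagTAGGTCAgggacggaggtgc
Nfil3: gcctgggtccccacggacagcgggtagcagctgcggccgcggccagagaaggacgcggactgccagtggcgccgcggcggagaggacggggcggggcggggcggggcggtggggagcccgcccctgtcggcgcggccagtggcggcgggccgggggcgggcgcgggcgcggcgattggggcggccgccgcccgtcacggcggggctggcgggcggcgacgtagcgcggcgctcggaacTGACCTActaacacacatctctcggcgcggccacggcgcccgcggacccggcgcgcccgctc
Among the falls, Per1 (chr11:69098699-69098998, plus strand, the first of its listed starts) held an E-box at 166 bases before the start, and its second listed start held no match. Tef (chr15:81802423-81802722, plus strand, the first of its listed starts) held an E-box at 127 bases before, and its second listed start held one at 138 bases before. Per3 (chr4:151044616-151044915, minus strand) held a D-box at 205 and again at 158 bases before.
Per1: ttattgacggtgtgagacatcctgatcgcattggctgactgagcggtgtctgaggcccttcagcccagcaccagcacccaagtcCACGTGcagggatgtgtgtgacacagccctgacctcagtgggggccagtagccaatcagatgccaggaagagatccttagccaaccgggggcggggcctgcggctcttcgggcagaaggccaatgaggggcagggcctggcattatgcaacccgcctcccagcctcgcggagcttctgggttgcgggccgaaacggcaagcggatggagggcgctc
Tef: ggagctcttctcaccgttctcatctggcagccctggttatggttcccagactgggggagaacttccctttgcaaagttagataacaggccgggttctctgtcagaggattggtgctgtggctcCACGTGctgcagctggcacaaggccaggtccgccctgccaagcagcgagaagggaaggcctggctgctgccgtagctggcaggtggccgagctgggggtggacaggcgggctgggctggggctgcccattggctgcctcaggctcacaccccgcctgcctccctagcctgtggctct
Per3: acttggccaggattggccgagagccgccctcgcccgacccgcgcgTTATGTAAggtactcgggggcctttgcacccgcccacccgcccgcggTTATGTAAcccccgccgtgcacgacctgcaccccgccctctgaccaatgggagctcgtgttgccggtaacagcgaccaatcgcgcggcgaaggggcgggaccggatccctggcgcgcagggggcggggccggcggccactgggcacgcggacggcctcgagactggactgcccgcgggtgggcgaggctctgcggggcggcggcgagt
Npas2, Dbp, Hlf, and Nr1d2 held none of these letters in the windows searched. Among the clock genes that did not pass, 7 had a promoter available, and Cry1, Ciart, and Bhlhe41 held an E-box. A match describes the sequence and is not evidence of binding in these hearts.

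Of 10 cardiac stress genes listed and tested, 4 were higher at 1.5 years and 0 lower, before and after length adjustment. Among all genes tested 0.839% were higher and 1.85% lower. After adjustment 0.624% and 0.576% of genes with a length were. The median log2 fold change of the list was 0.78, against -0.08 over all genes. Nppb (chr4:147985788-147987205, plus strand), which encodes B-type natriuretic peptide, was at 64.3, 88.8, and 104 CPM at 1 year and at 599, 633, and 440 CPM at 1.5 years. Every 1.5-year heart was far above the 1-year hearts, and the log2 fold change was 2.70 (SE 0.37, adjusted p = 0.00199) and 2.28 after length adjustment. Acta1 (chr8:123891769-123894751, minus strand), skeletal alpha-actin and a gene of the fetal program, was at 79.9, 60.7, and 104 CPM against 401, 317, and 390 CPM (log2 fold change 2.18, SE 0.33, adjusted p = 0.00451). Tnfrsf12a, the receptor of the cytokine TWEAK, was at 14.7, 12.3, and 22.6 CPM against 92.3, 96.2, and 73.3 CPM (log2 fold change 2.40, adjusted p = 0.00051). Rcan1, a calcineurin regulator that calcineurin itself induces, was at 55.7, 54.3, and 60.5 CPM against 112, 110, and 117 CPM (log2 fold change 0.99, adjusted p = 0.00451). These 4 calls held whichever heart was left out.

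Other genes of the fetal program did not pass. Nppa, which encodes atrial natriuretic peptide, was at 202, 257, and 44.2 CPM at 1 year and at 132, 214, and 198 CPM at 1.5 years, so that the groups overlapped (log2 fold change 0.11, and -0.26 after length adjustment, adjusted p = 0.953 and 0.871). Without Nppa, 6 other atrial myocyte markers summed to 196, 279, and 52.1 CPM at 1 year and to 49.6, 153, and 110 CPM at 1.5 years, lowest in replicate 1 of 1.5 years and replicate 3 of 1 year. Myh7, the slow myosin heavy chain, was at 72.6, 64.7, and 308 CPM against 432, 488, and 236 CPM. Replicate 3 of 1 year lay within the range of 1.5 years, and the adjusted p was 0.123 for a log2 fold change of 1.38. Ankrd1, a stretch-responsive nuclear protein, was at 523 ± 157 and 490 ± 43.3 CPM (adjusted p = 0.838).

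At 14 weeks several of these genes were nearer to the 1.5-year than to the 1-year level. Acta1 was at 308 ± 133 CPM at 14 weeks, with log2 changes of -1.91 from 14 weeks to 1 year and 0.26 from 14 weeks to 1.5 years (adjusted p = 0.0158 and 0.660), and Rcan1 at 135 ± 13.4 CPM, with -1.25 and -0.26 (adjusted p = 0.00132 and 0.277). Nppb at 14 weeks was at 224 ± 44.7 CPM, between the 2 other ages (changes of -1.38 and 1.32, adjusted p = 0.0717 and 0.0207).

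Of 27 sarcomere and Z disc genes, 3 (11.1%) were higher and 2 (7.41%) lower, against 0.839% and 1.85% of all genes tested. After length adjustment 3 were higher and 1 lower, against 0.624% and 0.576% of genes with a length. Ldb3 and Xirp1 passed only after adjustment (adjusted p = 0.0450 and 0.0448). Those adjusted calls were lost when any heart except replicate 1 of 1.5 years was left out (adjusted p up to 0.187 and 0.161). Actc1, the cardiac alpha-actin, was at 7689, 8536, and 6452 CPM at 1 year and at 12963, 16408, and 15760 CPM at 1.5 years (log2 fold change 0.99, SE 0.17, adjusted p = 0.00794, and 0.71 after length adjustment). With only the 2 ages in the fit its adjusted p was 0.0839, and that of Tcap 0.120. Tcap, the titin cap of the Z disc, was at 2001, 1848, and 1845 CPM against 723, 955, and 1291 CPM. It was lower although genes of its length range (up to 1918 bases) had a median change of 0.35, and its fall of 0.94 on the log2 scale (adjusted p = 0.0110) was 1.38 after length adjustment (adjusted p = 1.9e-05). Tnnc1, cardiac troponin C, and Myoz2, calsarcin-1, had log2 fold changes of 0.90 and 0.66 (adjusted p = 0.0313 and 0.0436), which after length adjustment were 0.42 and 0.54 and did not pass (adjusted p = 0.0671 and 0.0529). Both calls were also lost when any heart except replicate 1 of 1.5 years was left out (adjusted p up to 0.138 and 0.194).

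Ttn, the titin gene with the longest transcript among these (106824 bases), was at 1911, 2122, and 3211 CPM at 1 year and at 1094, 805, and 621 CPM at 1.5 years. Its log2 fold change was -1.52 (SE 0.32, adjusted p = 0.0269) and -0.02 after length adjustment (adjusted p = 0.977), and the call was lost without replicate 2 or 3 of either age (adjusted p up to 0.126). Myh6, the main myosin heavy chain of the adult mouse ventricle, was at 16219, 15837, and 22656 CPM against 14081, 14166, and 15171 CPM and did not pass (log2 fold change -0.33, and 0.13 after length adjustment, adjusted p = 0.242 and 0.792).

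**Figure D4:**
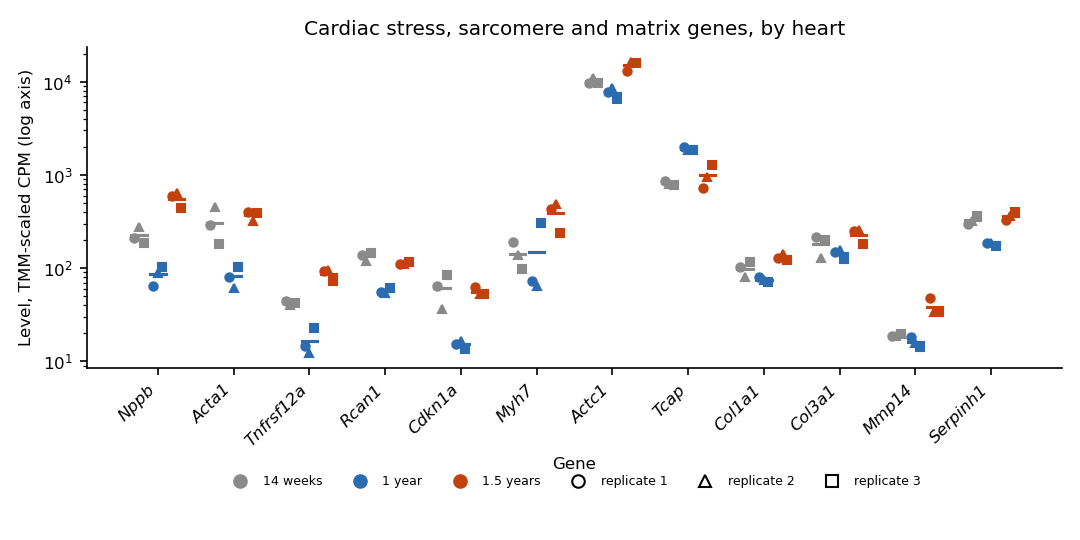
Level of cardiac stress, sarcomere, and matrix genes (y axis, TMM-scaled CPM, log axis) in each heart aged 1.5 years, 1 year, or 14 weeks, with marker shapes for replicates 1 to 3 and bars at group means. Nppb, Acta1, Tnfrsf12a, and Mmp14 did not overlap between 1 year and 1.5 years, while Myh7 did, with 308 CPM in replicate 3 of 1 year.

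Some calcium handling and ion channel genes passed without the length offset. Of 18 calcium handling genes 3 (16.7%) were lower and 0 higher (median log2 fold change -0.25). Of 26 channel and gap junction genes 3 (11.5%) were lower and 0 higher (median -0.52). Among all genes tested 1.85% were lower. After length adjustment 0 of either list passed in either direction and the medians were 0.05 and -0.18. The potassium channel subunit gene Kcne1, called higher in both fits as given above, was on neither list. The ryanodine receptor Ryr2 (transcript of 16814 bases) was at 888, 888, and 1130 CPM at 1 year and at 548, 396, and 340 CPM at 1.5 years. The log2 fold change of -1.18 (adjusted p = 0.0118) became -0.24 (adjusted p = 0.274) after adjustment, and the call was lost without replicate 2 or 3 of 1.5 years or replicate 3 of 1 year (adjusted p up to 0.0685). The L-type calcium channel Cacna1c and its subunit Cacna2d1 had log2 fold changes of -1.27 and -1.08 (-0.48 and -0.52 after adjustment), and the potassium channels Kcnj3 and Kcnh2 -1.23 and -0.64 (-0.88 and -0.45). Each of these 4 calls was lost without some single hearts, replicate 3 of both ages among them, with adjusted p up to 0.168. Atp2a2, the calcium pump of the sarcoplasmic reticulum, was at 8670 ± 482 and 6331 ± 934 CPM (log2 fold change -0.45, adjusted p = 0.0908), and its inhibitor Pln at 5026 ± 389 and 4598 ± 257 CPM (log2 fold change -0.13, adjusted p = 0.619).

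More collagen genes passed after length adjustment than without it. Of 38 collagen genes tested 3 (7.89%) were higher and 1 (2.63%) lower, against 0.839% and 1.85% of all genes tested. The median change was 0.02 on the log2 scale. After length adjustment 9 were higher and 1 lower, against 0.624% and 0.576% of genes with a length, and the median was 0.51. Col1a1 (chr11:94936224-94953042, plus strand), the alpha-1 chain of type I collagen, was at 80.6, 73.9, and 70.4 CPM at 1 year and at 127, 141, and 121 CPM at 1.5 years. The log2 fold change was 0.79 (SE 0.16, adjusted p = 0.0212) and 1.21 after length adjustment (adjusted p = 0.00337). The call without adjustment was lost without replicate 2 of 1.5 years or replicate 2 or 3 of 1 year (adjusted p up to 0.103), whereas with it the highest adjusted p was 0.0221. Col6a2, a chain of microfibrillar type VI collagen, was at 74.6, 100, and 79.9 CPM against 170, 151, and 146 CPM (log2 fold change 0.87, adjusted p = 0.0126). Col5a3, a chain of type V collagen, was at 8.22, 19.7, and 21.2 CPM against 66.1, 44.2, and 33.9 CPM (log2 fold change 1.55, adjusted p = 0.0339). The calls of Col6a2 and Col5a3 were lost without replicate 1 or 3 of 1 year, and that of Col5a3 also without replicate 2 of either age (adjusted p up to 0.0792 and 0.0883).

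Col3a1, the gene of type III collagen, passed after length adjustment and not without it. It was at 149, 158, and 124 CPM at 1 year and at 249, 255, and 180 CPM at 1.5 years (log2 fold change 0.67, adjusted p = 0.0942, against 1.02 and 0.0155 after adjustment), and the adjusted call was lost without replicate 2 of 1.5 years or replicate 3 of 1 year (adjusted p up to 0.0942). Col14a1, Col15a1, Col4a1, Col5a1, and Col6a3 likewise passed only after adjustment. The call of Col14a1 held whichever heart was left out (adjusted p up to 0.0431). The other 4 were lost without replicate 2 of 1.5 years or replicate 1 or 3 of 1 year, Col15a1, Col4a1, and Col5a1 also without replicate 2 of 1 year, and Col15a1 and Col5a1 also without replicate 3 of 1.5 years (adjusted p up to 0.153). Col1a2, the partner chain of Col1a1, was at 109 ± 18.0 and 130 ± 22.0 CPM and passed in neither fit (adjusted p = 0.452 and 0.108). The collagen that was lower, Col26a1, was under 1 CPM in all 6 hearts, and its call was lost without replicate 2 of either age and without 2 other hearts (adjusted p up to 0.122).

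Among matrix glycoproteins and proteoglycans 2 of 27 were higher (7.41%, against 0.839% of all genes tested) and 0 lower. Fbn1, the microfibril protein fibrillin-1, was at 31.8, 31.4, and 32.7 CPM at 1 year and at 70.5, 67.3, and 42.4 CPM at 1.5 years (log2 fold change 0.91, adjusted p = 0.0437, and 1.68 with adjusted p = 0.00011 after length adjustment). Vcan, the proteoglycan versican, was at 5.07, 9.06, and 7.60 CPM against 32.8, 13.6, and 18.3 CPM (log2 fold change 1.57, adjusted p = 0.0299, and 2.35 with adjusted p = 0.00011 after adjustment). Without adjustment the call of Fbn1 was lost when any heart except replicate 3 of 1.5 years was left out and that of Vcan without any of the 1-year hearts (adjusted p up to 0.161 and 0.115). Periostin (Postn) and fibronectin (Fn1), which mark fibrotic matrix, did not pass (log2 fold changes 0.25 and -0.78, adjusted p = 0.766 and 0.0990).

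Mmp14 (chr14:54431612-54445364, plus strand), a membrane-bound collagenase, was at 18.4, 15.8, and 14.2 CPM at 1 year and at 47.8, 33.7, and 33.5 CPM at 1.5 years (log2 fold change 1.25, SE 0.18, adjusted p = 0.00274). Serpinh1, the collagen chaperone HSP47, was at 187, 188, and 171 CPM against 324, 363, and 404 CPM (log2 fold change 1.00, SE 0.14, adjusted p = 0.00274). After adjustment the changes were 1.26 and 0.86, and both calls held whichever heart was left out. With only the 2 ages in the fit the adjusted p was 0.0803 for Mmp14 and 0.0377 for Serpinh1. Of the 25 matrix proteases, inhibitors, and cross-linkers, 2 were higher and 1 lower, before and after length adjustment. Among all genes tested 0.839% were higher and 1.85% lower, and after adjustment 0.624% and 0.576% of genes with a length. The list median was 0.15, and 0.16 after adjustment. Those higher were Mmp14 and the lysyl oxidase Loxl1 (log2 fold change 0.84, adjusted p = 0.0450). Mmp16 was lower, with 29, 133, and 20 counts at 1 year and 0, 0, and 1 at 1.5 years. Its adjusted p was 0.0322, and up to 0.0952 without single hearts, replicate 3 of either age among them. The call of Loxl1 was lost when any heart except replicate 1 of 1.5 years was left out (adjusted p up to 0.209). Spon2, a secreted matrix protein of the spondin family, was at 4.64, 6.18, and 3.51 CPM against 24.4, 35.5, and 25.5 CPM (log2 fold change 2.57, adjusted p = 0.0110, and 0.0723 without replicate 3 of 1 year). None of 26 TGF-beta and BMP signaling genes passed without adjustment. With it the TGF-beta mediator Smad3 was higher (13.2, 11.8, and 16.3 CPM against 25.5, 18.9, and 26.4 CPM, adjusted p = 0.0950, and 0.0250 after adjustment, when it was up to 0.109 without replicate 3 of 1.5 years or any of the 1-year hearts). The receptor Tgfbr1 was at 14.7 ± 1.84 and 8.71 ± 5.85 CPM (adjusted p = 0.458) and the BMP mediator Smad1 at 11.1 ± 3.24 and 13.5 ± 2.60 CPM (adjusted p = 0.548). The metalloproteinase inhibitor Timp2 was at 148, 183, and 114 CPM against 165, 173, and 137 CPM (adjusted p = 0.840).

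Nuclear genes of the respiratory chain and of ribosomes, which are short, had positive medians. None of 34 complex I, 9 complex III, 13 complex IV, and 17 ATP synthase genes encoded in the nucleus passed, although their median log2 fold changes were 0.50, 0.47, 0.48, and 0.38. After length adjustment the medians were 0.10, 0.05, 0.02, and 0.08. Of 82 cytosolic ribosomal protein genes 6 were higher (7.32%, against 0.839% of all genes tested) and 0 lower (median 0.52), and 1 was higher after adjustment (median 0.15). Among them Rps2 was at 790, 715, and 523 CPM at 1 year and at 944, 1222, and 1574 CPM at 1.5 years (log2 fold change 0.88, adjusted p = 0.0376, and 0.50 with adjusted p = 0.0468 after adjustment), a gene with processed pseudogenes whose reads may be shared. Among the others, Rpl23a, Rplp0, Rplp2, and Rpsa had log2 fold changes of 0.66 to 0.92. Of 77 mitochondrial ribosomal protein genes 5 (6.49%) were higher, Mrpl12, Mrpl13, Mrpl34, Mrpl44, and Mrpl55 (median 0.45, and 0.24 after adjustment, when Mrpl13 passed). Of 37 proteasome genes Psmb2, Psmb3, and Psmd9 (8.11%) were higher (median 0.32, and 0.11 after adjustment, when 0 passed). These 14 calls, with adjusted p of 0.0289 to 0.0468, were lost when any heart except replicate 1 of 1.5 years was left out (adjusted p up to 0.215). In the shares of counts, cytosolic ribosomal proteins took 1.90%, 1.77%, and 1.60% at 1 year and 2.27%, 2.77%, and 3.24% at 1.5 years, highest in replicate 3 of 1.5 years, which had the lowest length slope (exact permutation p = 0.10, the smallest possible).

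Genes for proteins of the mitochondrial genome did not pass. The log2 fold change was negative for all 13, and 0 passed. Of these, 6 (mt-Nd3, mt-Nd4l, mt-Co2, mt-Co3, mt-Atp6, and mt-Atp8) were at means of 0.0300 to 3.01 CPM, and the other 7 were at means of 187 to 127065 CPM. The median was -0.72 over those 7 (-1.04 after length adjustment), against -1.22 over all 13 (-1.40). The largest oxidase subunit, mt-Co1, was at 141531, 132004, and 107659 CPM at 1 year and at 95494, 82734, and 67887 CPM at 1.5 years (log2 fold change -0.63, adjusted p = 0.0883). The complex I subunit mt-Nd5 was at 32684, 40798, and 36077 CPM against 23156, 11672, and 12270 CPM (log2 fold change -1.22, adjusted p = 0.0699). The groups did not overlap for either gene, and replicates 2 and 3 of 1.5 years, which had the steepest length slopes, also had the lowest mitochondrial shares. The part of RNA quality or library preparation in these lists was not tested.

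Of 32 genes of fatty acid uptake and oxidation 0 were higher and 2 lower (6.25%, against 1.85% of all genes tested), in both fits, and the median change was 0.02 on the log2 scale. Slc27a1, a fatty acid transporter, was at 206, 192, and 268 CPM at 1 year and at 137, 119, and 122 CPM at 1.5 years (log2 fold change -0.82, adjusted p = 0.0193). Ucp3, an uncoupling protein, was at 54.3, 43.9, and 60.9 CPM against 33.6, 30.1, and 18.4 CPM (log2 fold change -0.95, adjusted p = 0.0348). The call of Slc27a1 was lost without replicate 2 or 3 of 1.5 years or replicate 3 of 1 year, and that of Ucp3 without any heart except replicate 1 of 1.5 years (adjusted p up to 0.106 and 0.165). Ppargc1a, a coactivator of mitochondrial genes, had a log2 fold change of -1.10 with overlapping groups (adjusted p = 0.101), Pdk4, which holds back glucose oxidation, one of -0.81 (adjusted p = 0.158), and Cpt1b, the muscle carnitine palmitoyltransferase, one of -0.48 (adjusted p = 0.556). Glucose genes gave 1 rise in 20 (5.00%, against 0.839% of all genes tested). The gene was Eno1 (log2 fold change 0.97, adjusted p = 0.0340, and 0.0541 after length adjustment), whose call was lost without any heart except replicate 1 of 1.5 years (adjusted p up to 0.135). Gapdh of the same list was at 1595 ± 98.6 and 2031 ± 413 CPM (adjusted p = 0.269).

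Outside the lists and chosen after their values were seen, 4 enzyme genes held whichever heart was left out, of which Alas1 and Inmt were not called with only the 2 ages in the fit (adjusted p = 0.0544 and 0.0847). Alas1, which makes the first heme precursor, was at 111, 158, and 138 CPM at 1 year and at 259, 271, and 276 CPM at 1.5 years (log2 fold change 0.98, adjusted p = 0.00953, and 1.02 after length adjustment). Pfkfb2, the heart isoform of the enzyme that makes fructose 2,6-bisphosphate, was at 38.7, 48.7, and 60.5 CPM against 13.7, 11.4, and 15.5 CPM (log2 fold change -1.87, adjusted p = 0.00234). Inmt, an indole and thioether methyltransferase, was at 77.6, 61.5, and 25.7 CPM against 16.5, 12.4, and 10.4 CPM (log2 fold change -2.07, adjusted p = 0.00750). Aox1, an aldehyde oxidase, was at 49.2 ± 4.48 CPM against 17.4 ± 4.12 CPM (log2 fold change -1.50, adjusted p = 0.00234). Of these, Inmt was at 11.1 ± 1.41 CPM at 14 weeks, close to its 1.5-year level, and Pfkfb2 at 33.9 ± 4.89 CPM, closer to its 1-year level.

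Lists of growth arrest, heat shock, and immediate early genes held 4 calls, all higher. Cdkn1a, the cell cycle inhibitor p21, was at 15.5, 16.6, and 13.5 CPM at 1 year and at 62.0, 52.8, and 53.0 CPM at 1.5 years (log2 fold change 1.88, SE 0.32, adjusted p = 0.00945). It was the 1 gene that passed of 14 senescence and cell cycle inhibitor genes (7.14%, against 0.839% of all genes that were higher), its adjusted p was 0.0561 without replicate 3 of 1 year, and its level at 14 weeks was 61.7 ± 24.2 CPM. Cdkn2a, the gene of p16, was at 0.452, 0.0403, and 0.742 CPM against 1.93, 0, and 2.5 CPM, with overlap (adjusted p = 0.700). Of 14 heat shock genes 2 were higher (14.3%). Hspb1, a small heat shock protein, was at 110, 88.0, and 79.3 CPM against 187, 208, and 235 CPM (log2 fold change 1.18, adjusted p = 0.00592, and 0.78 with adjusted p = 0.0128 after length adjustment, up to 0.0709 without replicate 2 or 3 of 1 year). Cryab, alpha-B-crystallin, had a log2 fold change of 0.73 (adjusted p = 0.0340, and 0.132 after adjustment), and its call was lost without any heart except replicate 1 of 1.5 years (adjusted p up to 0.160). Of 22 immediate early genes 1 was higher (4.55%), Jund (log2 fold change 0.75, adjusted p = 0.0468, and 0.102 after adjustment), which was lost under the same omissions (adjusted p up to 0.177).

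Of 25 cell cycle genes Ccnb1 was higher and Cenpf lower (4.00% each, against 0.839% and 1.85% of all genes tested), and 0 passed after length adjustment. Cenpf, a kinetochore protein with a transcript of 11130 bases, was at 45.9, 39.6, and 75.9 CPM at 1 year and at 10.2, 1.06, and 7.31 CPM at 1.5 years (log2 fold change -3.12, adjusted p = 0.0288, and -2.35 with adjusted p = 0.0529 after adjustment). Its call was lost without replicate 3 of either age (adjusted p up to 0.114). Ccnb1, cyclin B1, was at 0.256, 0.0201, and 0.160 CPM against 0.699, 1.46, and 1.38 CPM (adjusted p = 0.0468), and its call was lost without any heart except replicate 1 of 1.5 years (adjusted p up to 0.174). Mki67, the gene of Ki67, was at 3.80, 2.58, and 6.40 CPM against 2.00, 2.75, and 0.214 CPM and did not pass (adjusted p = 0.219).

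Chromatin regulators, a list of long transcripts (median 9190 bases), gave 3 falls in 28 (10.7%, against 1.85% of all genes tested) and a median of -0.72. The genes that fell were Kmt2a, Chd6, and Crebbp (log2 fold changes -1.51, -1.33, and -0.91). After length adjustment 0 passed and the median was -0.11. Each of the 3 calls was lost without replicate 2 or 3 of 1.5 years or replicate 1 or 3 of 1 year, and that of Crebbp also without replicate 2 of 1 year (adjusted p up to 0.168). Of 8 nuclear long noncoding RNAs Neat1, the scaffold of paraspeckles, was lower (12.5% of the list, against 1.85% of all genes tested). It was at 515, 575, and 1385 CPM at 1 year and at 304, 139, and 174 CPM at 1.5 years (log2 fold change -2.00, adjusted p = 0.0314, and -0.91 with adjusted p = 0.124 after adjustment), and its call was lost without replicate 2 or 3 of 1.5 years or replicate 3 of 1 year (adjusted p up to 0.169). Malat1 was at 601, 512, and 1056 CPM against 336, 151, and 151 CPM (log2 fold change -1.77, adjusted p = 0.0908).

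Of 123 genes on 14 lists of cell type markers 2 were higher and 1 lower (2.44%, against 2.69% of all genes tested), and 12 lists had no member called. The cardiomyocyte markers Actc1 and Ryr2 moved in opposite directions as given above, and Acta2, smooth muscle actin, rose from 64.9 ± 8.89 to 119 ± 11.2 CPM (log2 fold change 0.87, adjusted p = 0.0405, and 0.0849 after length adjustment). Its call was lost without any heart except replicate 1 of 1.5 years (adjusted p up to 0.184). Of the 12 smooth muscle and pericyte markers, Acta2 among them, 4 had positive and 8 negative changes, with a median of -0.29. They summed to 1117, 1108, and 1382 CPM at 1 year and to 1149, 847, and 924 CPM at 1.5 years. Cardiomyocyte markers summed to 72086, 71506, and 69071 CPM at 1 year and to 76885, 86309, and 105880 CPM at 1.5 years. Medians were 0.27 for 8 fibroblast, 0.10 for 13 endothelial, -0.01 for 18 macrophage, and 0.73 for 20 lymphocyte and plasma cell markers. Of those 20 markers 4 were under 1 CPM in all 6 hearts, and their median was 0.46 after length adjustment. They summed to 31.3, 29.9, and 40.7 CPM at 1 year and to 40.5, 47.6, and 56.9 CPM at 1.5 years, so that the groups overlapped. Red cell genes summed to 678, 367, and 436 CPM at 1 year and 655, 1574, and 934 CPM at 1.5 years, and were highest in replicate 2 of 1.5 years. The atrial markers, whose sums are given above, had a median of -1.58 with and without Nppa.

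No member of the inflammatory lists was called, against 2.69% of all genes tested, a share at which lists this short may hold 0. Among 29 interferon-stimulated genes 0 were called and the median was -0.34, with summed levels of 366, 371, and 928 CPM at 1 year and 361, 502, and 439 CPM at 1.5 years, so that replicate 3 of 1 year alone was high. The same heart was highest for 18 antigen presentation genes (1737, 1378, and 3217 CPM against 1620, 2609, and 2129 CPM), of which 0 were called. Complement (11 tested, median -0.11) and chemokine genes (25 tested, median 0.07) had 0 calls, as did genes of endoplasmic reticulum stress, antioxidant defense, autophagy and lysosome, the tricarboxylic acid cycle, complex II, replication-dependent histones, and the 17 cardiac transcription factors (median -0.48, and 0.08 after length adjustment).

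**Figure D5:**
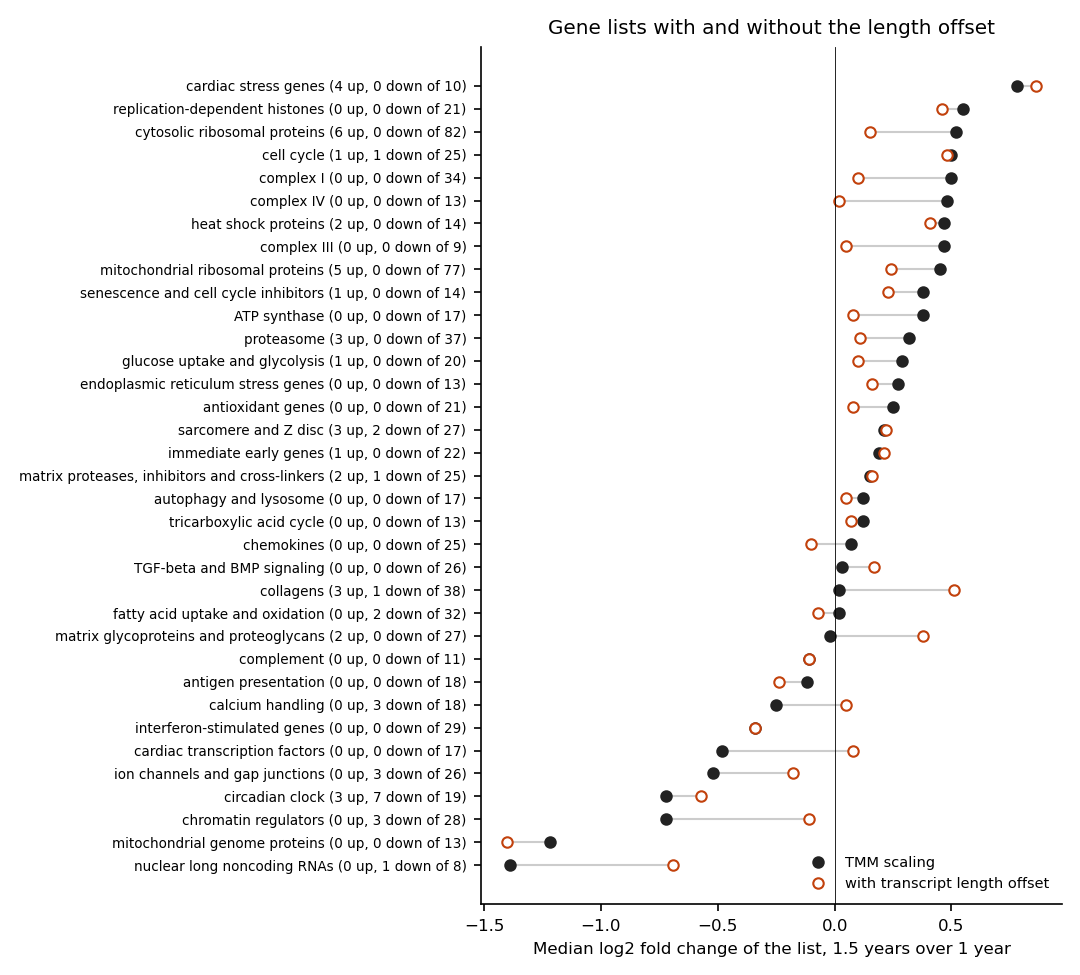
Median log2 fold change of each gene list (x axis, 1.5 years over 1 year) without (filled) and with (open) the transcript length offset, with the number of members called up and down of those tested. Lists of short transcripts encoded in the nucleus (ribosomal and respiratory chain proteins) and of long ones (chromatin regulators, ion channels) moved toward 0 with the offset. Proteins of the mitochondrial genome moved from -1.22 to -1.40, collagens moved from 0.02 to 0.51, and cardiac stress genes stayed at 0.78 and 0.86.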

How the data were processed

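Per the study's methods and the submitters' processing notes, the authors mapped single-end reads of 65 bases to mm10 with STAR 2.5.3a, counted them per gene with its GeneCounts mode, and deposited raw counts without normalization. The annotation and the strand column used are not given in the sources used here, so overlapping genes are uncertain. The whole heart counts held no column of a sample outside the labels, and no row lacked a gene name. The paper's DESeq2 results were not used.

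Samples were grouped by their age and tissue labels. All 15 whole hearts were fitted together with edgeR 4.0.16 in R 4.3.3 (filterByExpr, TMM scaling, quasi-likelihood F test, age as the only factor), and 1.5 years was contrasted with 1 year. Sharing the spread of 5 ages assumes that they vary alike. P values were Benjamini-Hochberg adjusted over all 17995 genes tested, X and Y included, and a gene was called at an adjusted p under 0.05. Each SE is the size of the log2 fold change over the square root of F. CPM used TMM-scaled totals. Lengths and positions came from GENCODE on GRCm38 (21807 symbols matched, 260 more placed by RefSeq alone, 788 unplaced). The length offset was a lowess (span 0.3) of each heart's deviation in log2 CPM (prior count 2) on log2 length, and heart slopes used log2 of CPM plus 0.5. Shares were compared by exact two-sided permutation tests. Both fits were tested on simulated data.

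Genes named were the 10 largest rises and falls among protein-coding genes called without overlap at a mean of at least 10 CPM, the 5 largest each way that were also called with the offset, up to 4 members of each of 50 lists with the smallest adjusted p, and a fixed set of cardiac genes. Other genes were chosen after their values were seen, among them the rest of the clock list, Serpinh1, Myoz2, Ankrd1, Ldb3, Xirp1, and the collagens called only with the offset. Some members of the lists are not reported here by name. The members and lists were chosen with earlier results of these data known. The same-numbered replicates were not paired in the labels. Alternatives were DESeq2 1.42.0, other scalings and filters, only the 2 ages, a replicate block, each heart left out, and offsets for length with GC content. No fold is printed against a group near 0. Genes at 0 in every heart of 1 age entered list medians with their fitted change, and no list median changed when they were held at a floor of 3 counts over the group.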

Additional observations from a re-analysis of the deposited data

How the results depend on the processing

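The 459 calls (143 higher, 316 lower) became 1670 (732, 938) with DESeq2, 292 with library size scaling (128 lower), 30 (12, 18) with only the 2 ages, 264 (57, 207) with at least a 2-fold change required, 202 with the length offset (97 lower), 265 with offsets for length and GC content (148 lower), and 223 higher genes at a mean of at least 1 CPM. With the replicate number as a block the count was 250 (65, 185), and 160 (86, 74) with the length offset as well. Same-numbered hearts of 1 year and 1.5 years did not deviate together across genes (correlations of -0.029, 0.010, and -0.057). Pairing by number was thus not seen, but 3 hearts of each age are too few to decide it. Leaving out 1 heart gave 63 to 1755 calls (21 to 584 higher, 42 to 1171 lower) and, with the length offset, 65 to 732 (31 to 359, 34 to 373). Clock genes gave 1 rise and 4 falls with only the 2 ages, and between 1 and 3 rises with 1 heart left out. The share of the 10 highest genes, with a difference of -8.47 percentage points at 1.5 years, had one of 2.05 without the mitochondrial genome. Signs turned for genes that did not pass in the main fit. With the offset for length, for length and GC content, and for length with the block, the log2 fold change was 0.22, 0.39, and 0.20 for Clock, 0.13, 0.06, and 0.13 for Myh6, and -0.26, -0.35, and -0.06 for Nppa. Pln had 0.02 with length and GC content. With 1 heart left out the range was -0.24 to 0.18 for Ankrd1 and -0.06 to 0.27 for Timp2, both turning without replicate 3 of 1 year, and -0.34 to 0.56 for Nppa, which turned without that heart and, at -0.02, without replicate 2 of 1.5 years. No called gene named in the text changed sign under any alternative run. The causes of these shifts were not tested. For the counts with the length offset, the alternatives were chosen after seeing the data.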
